A study of Homo sapiens with 4 samples.

Results

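The genes described here encode the proteins of the mitochondrial ribosome that carry an MRPL (large subunit) or MRPS (small subunit) symbol. They were taken from the expression table as all rows of gene type protein-coding whose symbol begins with MRPL or MRPS followed by a digit. This gave 77 of 48162 rows, 47 of the large and 30 of the small subunit, under 76 symbols on 21 chromosomes, since MRPS17 has 2 rows. Expression was measured by sequencing poly(A) RNA of MDA-MB-231, a human triple-negative breast cancer line in long use. Of the 4 libraries, 2 came from cells given vehicle for 24 h and 2 from cells given 10 µM MGH-CP1, which the series title names as a TEAD palmitoylation inhibitor. All came from 1 unmodified line, and no library from a second line or another dose enters the comparison. The labels do not say whether the replicates were separate cultures, and p-values therefore rest on a spread between libraries that may be technical alone.

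Mitochondria keep a small genome of their own and translate its mRNAs on a dedicated ribosome in the matrix. The ribosomal RNAs of this particle are made in the mitochondrion, while every one of its proteins is encoded in the nucleus, made in the cytosol and imported. Its products are core subunits of the respiratory chain and of ATP synthase. Part of its proteins descend from bacterial ribosomal proteins and keep their numbers. The rest have no bacterial counterpart and are called mitochondria-specific, and they carry the higher numbers, above 36 in the large and above 21 in the small subunit.

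Reads assigned to genes, recovered from the FPKM values, numbered 16790645 to 18485701 per library, and 20000 to 20544 genes had at least 1 read. Of the markers listed for a mesenchymal, basal breast cancer line, VIM, CD44, AXL, CAV1 and MSN were abundant, while SPARC lay between 0.0322 and 0.453 FPKM (read count set against the length of the gene and the depth of the library). Among the luminal markers ESR1 and PGR were at or near 0 (at most 0.00912 FPKM) and CDH1 was at most 0.895 FPKM, but KRT8 (288 to 299 FPKM) and KRT18 (59.4 to 78.7 FPKM) were abundant and GATA3 reached 4.82 FPKM. Of the stromal and immune markers, PTPRC, CD3E and CD68 were at most 0.0895 FPKM, COL1A1 lay between 1.85 and 2.79 FPKM, and PDGFRB between 0.984 and 1.59 FPKM.

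Mitochondrial ribosomal protein genes were lower with MGH-CP1, by small amounts and in both subunits. Of the 71 members with a mean of at least 1 FPKM, 38 fell, none rose and 33 did not pass, at an adjusted p under 0.05 (limma). Among all 11790 genes tested, 25.1% were called lower and 20.0% higher, against 53.5% of these members lower. The median log2 fold change (MGH-CP1 over vehicle, on the log2(FPKM + 1) scale) was -0.29 over the members, with quartiles of -0.41 and -0.12, and -0.02 over all genes tested. The lowest member stood at -0.66 and the highest at 0.19. FPKM is scaled to library size, so these values are relative to the other RNAs of a library. In bulk RNA of 1 line, fewer expressing cells and less RNA per cell cannot be told apart. With voom on the recovered reads 26.7% of all genes were called lower and 22.1% higher. No member rose with voom on the recovered reads either, where 39 fell, and MRPL41 was called higher under 5 of 12 alternatives. Without MGH-CP1 replicate 1 the count of lower members was 25 (34.7% of those tested, against 17.3% of all genes). Here and in every fit that leaves out a library, 1 group has a single library that is assumed to vary like the other group, so the p-values rest on the spread of the other group alone.

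Nearly the whole set lay on the lower side. The log2 difference was below 0 for 70 of 71 members, against 52.1% of all genes. Both MGH-CP1 values lay below both vehicle values for 51 members (39.4% of all genes did so). They lay above both for 1 member, MRPL41 (34.7% of all genes). Large changes were not a feature of the set: 8 of 71 members (11.3%) had a log2 difference of -0.5 or lower, the same share as among all genes (11.3%), and none reached -1, which 2.34% of all genes did.

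**Figure D1:**
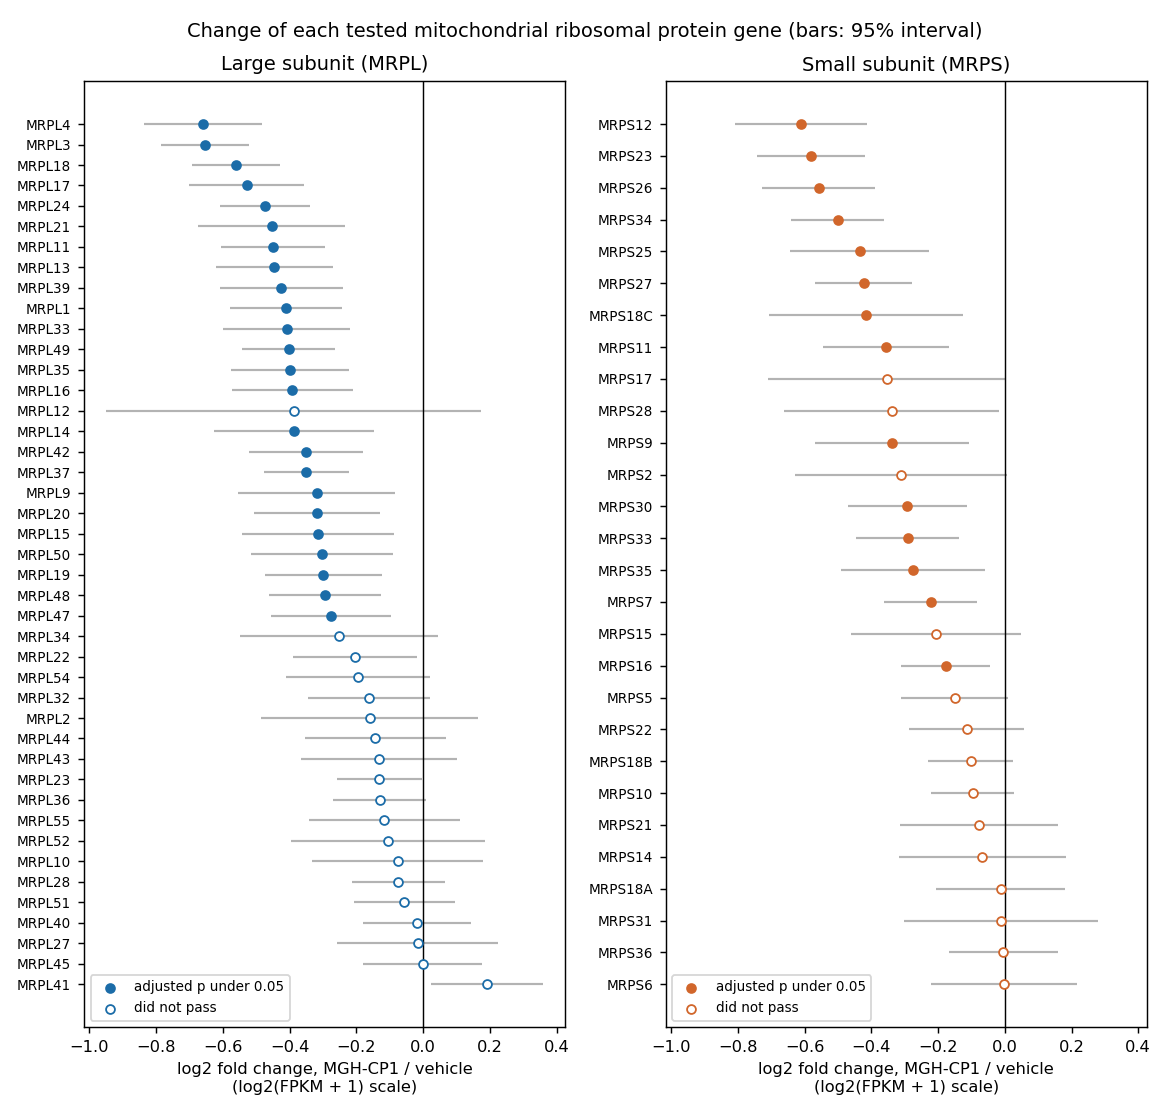
Log2 fold change (MGH-CP1 over vehicle, log2(FPKM + 1) scale) of each of the 43 tested large-subunit and 28 tested small-subunit genes, ordered by value. Points are estimates, bars their 95% intervals, and filled points mark an adjusted p under 0.05. MRPL4 (-0.66) and MRPS12 (-0.61) are lowest in their subunits, and MRPL41 (0.19) is the only point above 0.

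Summed over the 77 members, the table gave 1842 and 1710 FPKM in the vehicle libraries and 1470 and 1431 FPKM with MGH-CP1. The groups did not overlap. The mean went from 1776 ± 93.3 to 1451 ± 27.5 FPKM (SD, n = 2 each), 18.3% lower. Lower calls were found at every level. Among members with a mean under 10 FPKM 7 of 18 fell, between 10 and 30 FPKM 20 of 35, and above 30 FPKM 11 of 18. Of other protein-coding genes 1090 of 5135, 995 of 3328 and 673 of 2246 were called lower in the same classes.

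The 2 vehicle libraries were not alike in these genes. Vehicle replicate 1 exceeded vehicle replicate 2 in 55 of 71 members (77.5%), against 48.6% of all genes tested, with a median log2 difference of 0.09. Replicate 1 was higher for 70.7% of other protein-coding genes under 2 kb and for 43.8% of longer ones. Among members it was higher for 35 of 44 under 2 kb (79.5%) and for 20 of 27 longer ones (74.1%), so the longer members did not follow the other long genes. The members are short, with a median length of 1693 bases against 3478 bases for the other protein-coding genes tested. The part of length in the difference between the vehicle libraries was not tested. The share called lower with MGH-CP1 was nearly equal at both lengths. Among other protein-coding genes 26.2% of those under 2 kb and 25.7% of longer ones were lower, and among members 24 of 44 shorter and 14 of 27 longer ones. The size of the change differed among members, with a median of -0.31 for the shorter and -0.21 for the longer ones. For other protein-coding genes these medians were -0.01 and -0.02. At -0.5 or lower lay 8 shorter members and 0 longer ones. The part of length in these sizes was not tested. Without vehicle replicate 1, 32 members were lower (45.1%, against 25.1% of all genes) and the median was -0.22. Without vehicle replicate 2, 46 were lower (64.8%, against 26.0%) and the median was -0.34.

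**Figure D2:**
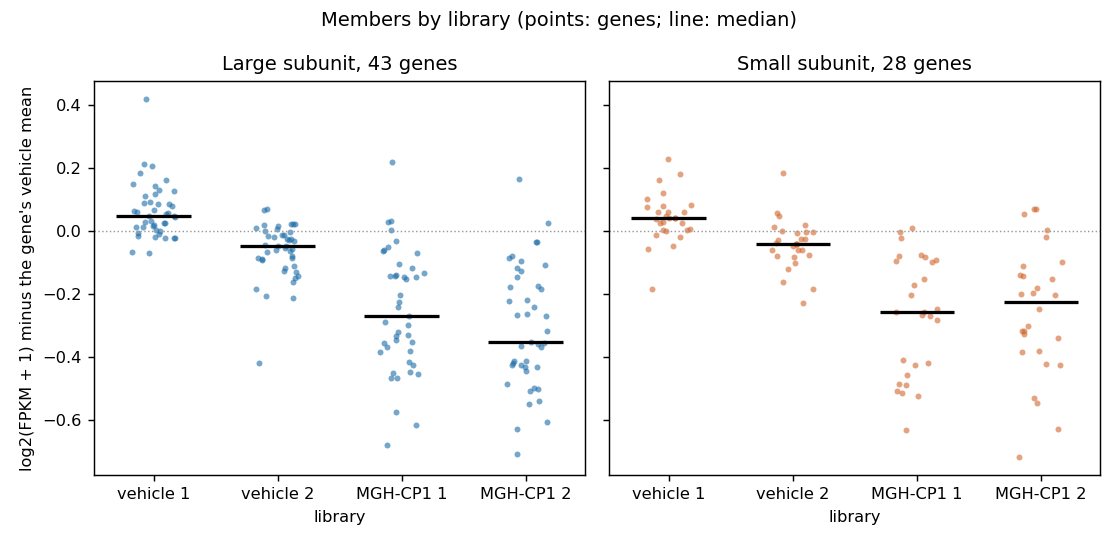
Each gene's log2(FPKM + 1) value in each of the 4 libraries, relative to its own vehicle mean, for the large (43 genes) and small (28 genes) subunit. Points are genes and lines are medians, which stood at -0.27 and -0.35 in the MGH-CP1 libraries for the large subunit and at -0.26 and -0.22 for the small one.

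Both subunits were lower, and their median log2 fold changes lay close together. In the large subunit 24 of 43 tested genes fell and the median was -0.30 on the log2 scale. In the small subunit 14 of 28 fell and the median was -0.28. Of all genes tested 25.1% were called lower. The medians differed by -0.02. The large minus small difference of library medians had a within-group SD of 0.0487 (2 libraries per group), larger than that difference. Relative to each gene's vehicle mean, the large-subunit medians were -0.27 and -0.35 in the MGH-CP1 libraries. Those of the small subunit were -0.26 and -0.22, so the subunits lay further apart in replicate 2. The median level of tested large-subunit genes was 22.2 and 19.6 FPKM in vehicle and 17.8 and 16.5 FPKM with MGH-CP1. For the small subunit it was 17.2 and 16.1 FPKM, and 15.1 and 14.5 FPKM. The large-subunit sum was 1219 and 1117 FPKM in vehicle and 967 and 933 FPKM with MGH-CP1, a fall of 18.6% in the mean. The small-subunit sum was 623 and 594 FPKM in vehicle and 503 and 498 FPKM with MGH-CP1, a fall of 17.7%. The ratio of the large to the small sum was 1.96 and 1.88 in vehicle and 1.92 and 1.87 with MGH-CP1, so the groups overlapped. Without MGH-CP1 replicate 1 the difference of medians was -0.15 and the small subunit had 7 lower genes. Without MGH-CP1 replicate 2 it had 9, and without vehicle replicate 2 the difference was 0.0062.

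Counting by symbol puts 3 proteins where they do not belong structurally. MRPS30 and MRPS18A are known to sit in the large subunit, and the MRPS36 product is known as a subunit of the alpha-ketoglutarate dehydrogenase complex (KGD4). With these moved or left out, 25 of 45 large and 13 of 25 small members were lower, against 25.1% of all genes. The medians were -0.30 and -0.29.

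Split by ancestry, the counts are read against the 25.1% of all genes that were lower. In the large subunit, 17 of 27 tested proteins of bacterial type fell (median -0.39), as did 7 of 16 mitochondria-specific ones (median -0.17). In the small subunit, 6 of 16 of bacterial type fell (37.5%, the class nearest to that share, median -0.19), as did 8 of 12 mitochondria-specific ones (median -0.32). Over both subunits the shares were alike, at 23 of 43 and 15 of 28. The split follows the symbols alone, so MRPS30, MRPS18A and MRPS36 are counted here in the small subunit. These counts describe the genes and were not tested against each other.

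In the large subunit the largest falls were all in proteins of bacterial type. MRPL4, whose bacterial counterpart lines the tunnel through which the new peptide leaves, stood at 21.6 and 19.6 FPKM in vehicle and at 13.1 and 12.2 FPKM with MGH-CP1 (log2 fold change -0.66 ± 0.07 SE; limma, adjusted p = 0.000503). The gene is ENSG00000105364, on hg19 chromosome 19, 10362577 to 10370721, plus strand. Both treated values lay well below both vehicle values. MRPL3, the counterpart of a protein near the peptidyl transferase centre, stood at 52.8 and 54.5 FPKM in vehicle and at 33.1 and 34.4 FPKM with MGH-CP1 (log2 fold change -0.65 ± 0.06; limma, adjusted p = 0.000154). It is ENSG00000114686, chromosome 3, 131181056 to 131221827, minus strand. It had the smallest adjusted p among the members in this fit, and its level fell by 37.1% between the group means.

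MRPL18 (ENSG00000112110, chromosome 6, 160210844 to 160219468, plus strand), a protein of the central protuberance, had 37.3 and 38.2 FPKM in vehicle and 25.0 and 25.5 FPKM with MGH-CP1. MRPL17 (ENSG00000158042, chromosome 11, 6702013 to 6704632, minus strand) had 39.1 and 36.4 FPKM in vehicle and 27.3 and 24.4 FPKM with MGH-CP1. MRPL24 (ENSG00000143314, chromosome 1, 156707095 to 156711382, minus strand), which lies near the tunnel exit, had 59.9 and 57.6 FPKM in vehicle and 42.8 and 41.2 FPKM with MGH-CP1. All 3 fell with no overlap between the groups, by -0.56, -0.53 and -0.47 on the log2 scale (limma, adjusted p = 0.000292, 0.00123 and 0.000636). Their calls, and those of MRPL4 and MRPL3, held under all 12 alternatives tried. A further 12 proteins of bacterial type fell by smaller amounts, from MRPL21 at -0.45 to MRPL19 at -0.30. Among the 10 that did not pass, MRPL34 stood at -0.25, and MRPL27, at 11.9 and 9.56 FPKM in vehicle and 10.7 and 10.4 FPKM with MGH-CP1, showed almost no difference (-0.02 ± 0.10, 95% interval -0.26 to 0.22).

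The most abundant member was MRPL14 (ENSG00000180992, chromosome 6, 44081194 to 44095194, minus strand), which lies at the interface between the subunits. Its values were 122 and 97.5 FPKM in vehicle and 85.3 and 81.3 FPKM with MGH-CP1. It fell by 0.39 ± 0.10 on the log2 scale (limma, adjusted p = 0.0186), with the vehicle libraries far apart. The call was lost in 3 settings: with no filter on low values (limma, adjusted p = 0.130), without MGH-CP1 replicate 1 (-0.42; 0.0503) and without MGH-CP1 replicate 2 (-0.35; 0.0835).

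MRPL12 forms the stalk that recruits translation factors, and it rested on 1 library. It read 7.10 FPKM in vehicle replicate 1 but 3.53 FPKM in vehicle replicate 2, and 3.77 and 3.50 FPKM with MGH-CP1, so the groups overlapped. The log2 difference of -0.39 ± 0.24 did not pass (limma, adjusted p = 0.224). It was 0.03 without vehicle replicate 1 and -0.81 without vehicle replicate 2. The gene (chromosome 17, 79670387 to 79674556) shares its strand and span with SLC25A10, which averaged 6.73 FPKM, and how reads in shared exons were assigned is not given in the sources used here.

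Of the mitochondria-specific proteins of the large subunit, 7 of 16 fell and MRPL41 alone lay above 0. MRPL37 (ENSG00000116221, chromosome 1, 54649714 to 54691137), the most abundant of those that fell, stood at 81.0 and 78.9 FPKM in vehicle and at 63.3 and 61.7 FPKM with MGH-CP1 (-0.35 ± 0.05; limma, adjusted p = 0.00196). MRPL50, the least abundant tested member of this class, stood at 5.63 and 5.52 FPKM in vehicle and at 4.56 and 4.11 FPKM with MGH-CP1 (-0.30 ± 0.09; limma, adjusted p = 0.0295). Its call was lost in 5 of 11 alternatives: no filter (limma, adjusted p = 0.0913), quantile normalization (0.0542), and without vehicle replicate 1 (0.0664), MGH-CP1 replicate 1 (0.0634) or MGH-CP1 replicate 2 (0.184). The other members of this class that fell were MRPL39 (-0.42), MRPL49 (-0.40), MRPL42 (-0.35), MRPL48 (-0.29) and MRPL47 (-0.28).

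MRPL41 (ENSG00000182154, chromosome 9, 140445651 to 140447007, plus strand), which lies near the tunnel exit, was the single member on the higher side. It stood at 55.6 and 49.2 FPKM in vehicle and at 61.0 and 58.7 FPKM with MGH-CP1, without overlap. The log2 difference of 0.19 ± 0.07 did not pass (limma, adjusted p = 0.0633). It passed under 5 of the 12 alternatives, for example with a replicate block (limma, adjusted p = 0.0351) and with median-of-ratios scaling (0.0442). The adjusted p ranged up to 0.277 over the others. MRPL45, at 25.5 and 22.5 FPKM in vehicle and 24.5 and 23.4 FPKM with MGH-CP1, and MRPL40, at 12.9 and 12.9 FPKM in vehicle and 12.3 and 13.1 FPKM with MGH-CP1, overlapped between the groups. Their 95% intervals were -0.18 to 0.18 and -0.18 to 0.14 on the log2 scale.

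In the small subunit the largest fall was in MRPS12 (ENSG00000128626, chromosome 19, 39421188 to 39423802, plus strand), the counterpart of a bacterial protein of the decoding centre. It stood at 27.4 and 25.7 FPKM in vehicle and at 18.4 and 15.8 FPKM with MGH-CP1 (-0.61 ± 0.08; limma, adjusted p = 0.00115). The next 4 falls were all in mitochondria-specific proteins. MRPS23 (ENSG00000181610, chromosome 17, 55916842 to 55927417, minus strand) stood at 43.2 and 39.7 FPKM in vehicle and at 26.4 and 28.4 FPKM with MGH-CP1 (-0.58 ± 0.07; limma, adjusted p = 0.000615). MRPS26 (ENSG00000125901, chromosome 20, 3026591 to 3028900, plus strand) stood at 29.9 and 32.0 FPKM in vehicle and at 21.8 and 19.7 FPKM with MGH-CP1 (-0.56 ± 0.07; limma, adjusted p = 0.000881). Neither gene overlapped between the groups.

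MRPS34 (ENSG00000074071, chromosome 16, 1821891 to 1823156, minus strand), a protein needed for a stable small subunit, stood at 62.3 and 60.2 FPKM in vehicle and at 44.4 and 41.6 FPKM with MGH-CP1 (-0.50 ± 0.06; limma, adjusted p = 0.00061). MRPS25 (ENSG00000131368, chromosome 3, 15083967 to 15106842, minus strand) stood at 6.81 and 6.36 FPKM in vehicle and at 4.41 and 4.81 FPKM with MGH-CP1 (-0.44 ± 0.09; limma, adjusted p = 0.00638). The call of MRPS25 was lost without MGH-CP1 replicate 1 (limma, adjusted p = 0.0505), while those of MRPS12, MRPS23, MRPS26 and MRPS34 held under all 12 alternatives. Another pair of genes counted as mitochondria-specific by symbol, MRPS31 and MRPS36, lay at -0.01 and -0.00. Their vehicle and MGH-CP1 values overlapped.

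MRPS10, the counterpart of bacterial S10 and the most abundant small-subunit gene, differed little. It stood at 93.1 and 92.7 FPKM in vehicle and at 86.9 and 86.8 FPKM with MGH-CP1. The groups did not overlap and replicates lay close, but the log2 difference of -0.10 ± 0.05 did not pass (limma, adjusted p = 0.173, 95% interval -0.22 to 0.03). MRPS17, the least abundant tested member, rested on 27 or more reads in a library and stood at 1.73 and 1.58 FPKM in vehicle and at 0.847 and 1.34 FPKM with MGH-CP1 (-0.35 ± 0.15; limma, adjusted p = 0.0981).

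The 3 genes related to bacterial S18 differed among themselves. MRPS18C stood at 4.60 and 3.74 FPKM in vehicle and at 2.61 and 3.14 FPKM with MGH-CP1 and was called lower (-0.42 ± 0.12; limma, adjusted p = 0.0298). It did not hold when low values were kept in (limma, adjusted p = 0.142), without vehicle replicate 1 (0.107) and without MGH-CP1 replicate 1 (0.163). MRPS18B stood at 41.4 and 42.1 FPKM in vehicle and at 39.1 and 38.5 FPKM with MGH-CP1, and the difference of -0.10 ± 0.05 missed the threshold (limma, adjusted p = 0.165). MRPS18A stood at 18.9 and 16.8 FPKM in vehicle and at 16.8 and 18.5 FPKM with MGH-CP1, with overlapping groups and a 95% interval of -0.21 to 0.18. Differences between these 3 genes were not tested.

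Neighbouring members did not all behave alike. On chromosome 6, MRPS10, MRPL2, MRPS18A and MRPL14 lie within 1.92 Mb, and of these MRPL14 was called, while MRPL2 stood at 32.4 and 23.9 FPKM in vehicle and at 26.8 and 22.9 FPKM with MGH-CP1, with overlapping groups.

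The 6 members below the limit for testing were MRPL30, MRPL38, MRPL46, MRPL53, MRPS24 and the second MRPS17 row (ENSG00000249773), which was at 0 in every library. MRPL30 had 0.0229 FPKM in vehicle replicate 2 and was at 0 in the other libraries. MRPL38 lay between 0.126 and 0.398 FPKM, MRPL46 between 0.148 and 0.321 FPKM, MRPL53 between 0.863 and 1.07 FPKM and MRPS24 between 0.569 and 1.17 FPKM. All 6 overlap another annotated gene on the same strand, as do 12 of the 71 tested members. Whether reads shared between genes were dropped in counting is not given in the sources used here, and the part of such overlap in these low values was not tested. Among tested members 28 overlap another gene with a mean of at least 1 FPKM on either strand. With these left out, 24 of 43 members were lower, against 25.1% of all genes, and the median was -0.29.

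Promoter sequences are shown for 6 members to set the letters before and around the start beside the size of the change. The windows run from 250 bases before to 50 bases after the RefSeq start (build GRCh38.p14) and are written 5′ to 3′ on the gene's strand. MRPL4 is the largest fall, MRPL3, MRPL17 and MRPS34 are among the others, MRPS10 is the most abundant small-subunit gene, and MRPL41 is the member on the higher side. Capitals mark matches on either strand to 5 sets of letters, namely CCGGAAG (ETS factors, GABP among them), the palindromic core of NRF1 (the capitals in MRPL17), AAGATGGCG (YY1), CACGTG (the E-box that MYC can bind) and GGAATG (TEAD).
MRPL4, chr19:10251701-10252000, plus strand: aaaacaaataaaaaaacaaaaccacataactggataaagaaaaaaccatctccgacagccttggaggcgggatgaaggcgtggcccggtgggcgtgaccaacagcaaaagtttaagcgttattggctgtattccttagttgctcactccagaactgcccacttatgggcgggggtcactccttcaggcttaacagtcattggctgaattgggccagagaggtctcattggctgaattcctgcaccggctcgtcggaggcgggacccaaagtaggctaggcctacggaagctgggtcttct
MRPL3, chr3:131502922-131503221, minus strand: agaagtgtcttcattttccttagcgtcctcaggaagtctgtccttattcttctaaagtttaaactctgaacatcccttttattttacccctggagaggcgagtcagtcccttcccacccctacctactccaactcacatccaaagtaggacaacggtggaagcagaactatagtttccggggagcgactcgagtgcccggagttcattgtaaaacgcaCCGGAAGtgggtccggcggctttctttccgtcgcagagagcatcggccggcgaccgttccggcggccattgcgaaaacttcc
MRPL17, chr11:6683291-6683590, minus strand: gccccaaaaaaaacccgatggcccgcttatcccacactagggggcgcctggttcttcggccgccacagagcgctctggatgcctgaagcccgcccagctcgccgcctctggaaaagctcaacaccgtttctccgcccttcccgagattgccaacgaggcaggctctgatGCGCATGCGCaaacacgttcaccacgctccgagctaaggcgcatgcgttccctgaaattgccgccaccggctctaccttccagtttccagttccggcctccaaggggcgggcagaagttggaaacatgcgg
MRPS34, chr16:1773085-1773384, minus strand: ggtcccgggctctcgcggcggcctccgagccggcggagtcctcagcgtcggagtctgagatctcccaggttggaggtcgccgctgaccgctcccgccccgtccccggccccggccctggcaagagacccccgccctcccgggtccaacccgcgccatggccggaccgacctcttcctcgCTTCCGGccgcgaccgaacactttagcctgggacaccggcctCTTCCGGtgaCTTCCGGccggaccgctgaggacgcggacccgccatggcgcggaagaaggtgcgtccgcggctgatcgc
MRPS10, chr6:42217812-42218111, minus strand: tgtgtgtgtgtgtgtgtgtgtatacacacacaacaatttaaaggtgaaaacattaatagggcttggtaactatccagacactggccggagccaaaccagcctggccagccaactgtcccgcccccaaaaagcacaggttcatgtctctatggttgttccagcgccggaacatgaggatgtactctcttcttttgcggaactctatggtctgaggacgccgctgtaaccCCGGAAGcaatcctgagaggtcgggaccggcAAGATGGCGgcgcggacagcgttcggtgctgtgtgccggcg
MRPL41, chr9:137551629-137551928, plus strand: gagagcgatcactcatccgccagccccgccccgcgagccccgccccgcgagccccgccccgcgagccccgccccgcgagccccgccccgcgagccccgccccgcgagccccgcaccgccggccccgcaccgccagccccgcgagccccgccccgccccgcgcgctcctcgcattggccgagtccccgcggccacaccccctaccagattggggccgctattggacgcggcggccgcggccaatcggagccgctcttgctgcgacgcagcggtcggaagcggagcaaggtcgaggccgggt

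MRPL3 holds the ETS letters once, beginning 32 bases before the start. MRPS34 holds them 3 times, beginning 71, 29 and 19 bases before it. MRPS10 holds them once at 22 bases before the start, with the YY1 letters just after it. MRPL17 holds the NRF1 letters, beginning 81 bases before the start. None of the 5 sets was found in the windows of MRPL4 and MRPL41, nor in those of MRPL18 and MRPS25, which also fell and are not shown. A window without these letters was thus found both among the largest falls and for the member on the higher side.

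Promoters matched 67 of the 76 symbols. The ETS letters were in 28 of the 67 (41.8%), against 20.6% of the 8262 matched promoters of all tested protein-coding genes and 10.7% of all 27305 promoters. The YY1 letters were in 13 (19.4%), against 4.41% and 1.85%. The NRF1 letters were in 1 (1.49%), against 2.49% and 1.36%, and CACGTG was in 6 (8.96%), against 10.4% and 7.43%. The TEAD letters were in 10 (14.9%), against 10.7% and 14.0%. Of the tested members with the ETS letters 13 of 25 were lower, as were 21 of 37 without them, against 25.1% of all genes. Their medians were -0.20 and -0.31. These matches describe letters in a window and are no measure of binding.

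Many of these genes start back to back with another gene. A partner on the opposite strand with its start within 1 kb was found for 15 of 71 tested members (21.1%), against 10.2% of 10709 other tested protein-coding genes. MRPL18 and TCP1, a subunit of the cytosolic chaperonin, start 63 bases apart and both fell (-0.56 and -0.42). For 3 pairs the partner alone was called. MRPL27 (-0.02) starts 6 bases from EME1, a DNA repair endonuclease subunit that was called lower (-0.88, from a mean of 1.97 to 0.607 FPKM). MRPL52 (-0.11) starts 59 bases from SLC7A7, an amino acid transporter called higher (0.51), and MRPL54 (-0.20) 965 bases from APBA3, called higher (0.33). MRPL47, MRPL50, MRPL11, MRPL21 and MRPS18C were called lower beside a partner that did not pass, for example MRPL47 (-0.28) beside the complex I gene NDUFB5 (0.05). MRPS11 (-0.36) and MRPL46, a pair of members, start 34 bases apart, and MRPL46 was too low to test. Differences within pairs were not tested.

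Mitoribosome proteins that carry other symbols lay at the same median as the members. Of 7, 5 fell and none rose, against 25.1% of all genes lower and 20.0% higher, with a median of -0.29. PTCD3, a pentatricopeptide protein of the small subunit, stood at 12.2 and 12.6 FPKM in vehicle and at 9.63 and 8.66 FPKM with MGH-CP1 (-0.40 ± 0.08; limma, adjusted p = 0.00519). ICT1, a release factor homologue built into the large subunit, stood at 22.1 and 18.5 FPKM in vehicle and at 15.4 and 15.6 FPKM with MGH-CP1 (-0.36 ± 0.09; limma, adjusted p = 0.0144).

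Factors that build the particle and modify its RNA fell in 10 of 25 tested cases (40.0%, against 25.1% of all genes) and rose in none, with a median of -0.22. C1QBP, an abundant matrix protein required for mitochondrial translation, went from 166 and 161 FPKM to 94.0 and 93.0 FPKM (-0.80 ± 0.05; limma, adjusted p = 6.15e-05), a larger change than that of any member. FTSJ2, a methyltransferase of the large-subunit RNA now named MRM2, went from 19.3 ± 0.388 to 12.3 ± 0.454 FPKM (SD, n = 2 each; log2 fold change -0.61 ± 0.07). Both genes showed no overlap between groups. Translation factors fell in 8 of 16 cases (25.1% of all genes) and rose in 1 (20.0% of all genes), with a median of -0.28. LRPPRC, which stabilises mitochondrial mRNAs, went from 44.1 and 49.2 FPKM to 30.4 and 31.1 FPKM (-0.58 ± 0.07), and the elongation factor gene GFM1 from 10.2 and 10.7 FPKM to 6.88 and 7.29 FPKM (-0.50 ± 0.08). The exception, named after its values were seen, was the initiation factor gene MTIF3, which rose from 11.5 and 11.8 FPKM to 15.3 and 15.0 FPKM (0.35 ± 0.07; limma, adjusted p = 0.00426).

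Regulators of genes for mitochondrial proteins, nuclear or mitochondrial, fell in 5 of 8 tested cases, against 25.1% of all genes, and none rose. TFAM, the 1 of them that acts on mitochondrial DNA, which it packages and helps to transcribe, went from 19.6 and 23.1 FPKM to 11.1 and 12.5 FPKM (-0.80 ± 0.10; limma, adjusted p = 0.000626). PPRC1, a coactivator of the PGC-1 family, went from 17.2 and 17.7 FPKM to 11.2 and 10.4 FPKM (-0.65 ± 0.07). MYC (-0.43), NRF1 (-0.29) and YY1 (-0.19) were also called lower, while GABPA (0.14) and GABPB1 (-0.16), the subunits of the ETS factor GABP, did not pass. PPARGC1A and PPARGC1B were too low to test.

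The mRNAs that the mitochondrial ribosome translates moved the other way. Of 13 mRNAs encoded in mitochondrial DNA, 11 rose and 1 fell, with a median of 1.48. Among all genes 20.0% were called higher and 25.1% lower. MT-ND6 went from 417 and 385 FPKM to 1732 and 1685 FPKM (2.09 ± 0.07; limma, adjusted p = 9.61e-06), and MT-ND5, another complex I subunit, from 253 and 241 FPKM to 963 and 984 FPKM (1.97 ± 0.06). MT-ATP8 did not pass, and the 1 that fell was MT-ND3 (-0.39 ± 0.12; limma, adjusted p = 0.0345). How far capture on oligo-dT bears on these RNAs was not tested. The mitochondrial rRNAs were not analysed here.

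Cytosolic ribosomal proteins and the nuclear subunits of the respiratory chain are the families closest in kind. Of 80 tested cytosolic ribosomal protein genes 19 fell and none rose, with a median of -0.13. The share that fell (23.8%) was near that of all genes (25.1%). RPL22L1, a paralogue of RPL22, went from 4.55 and 4.51 FPKM to 2.27 and 2.02 FPKM (-0.82 ± 0.10). RPL26 stood at 8.48 and 4.28 FPKM in vehicle and at 2.89 and 3.53 FPKM with MGH-CP1 (-0.75 ± 0.25; limma, adjusted p = 0.0416), with its vehicle libraries far apart. These values lie far below the median level of 248 FPKM in this family, and another RPL26 row was too low to test. Many cytosolic ribosomal protein genes have near-identical pseudogene copies with which reads may be shared. Of 69 tested nuclear genes for respiratory chain and ATP synthase subunits, 10 fell (14.5%, below the share of all genes) and 2 rose, with a median of 0.01. UQCRFS1, the iron-sulfur protein of complex III, fell by 0.35 ± 0.08, and ATP5G1, a subunit c gene of ATP synthase, by 0.32. Vehicle replicate 1 exceeded replicate 2 in 91.2% of the cytosolic ribosomal and 87.0% of the respiratory genes, and its part in these counts was not tested. No test of the mitochondrial ribosomal genes against these families was made, since genes of a family are not replicates.

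**Figure D3:**
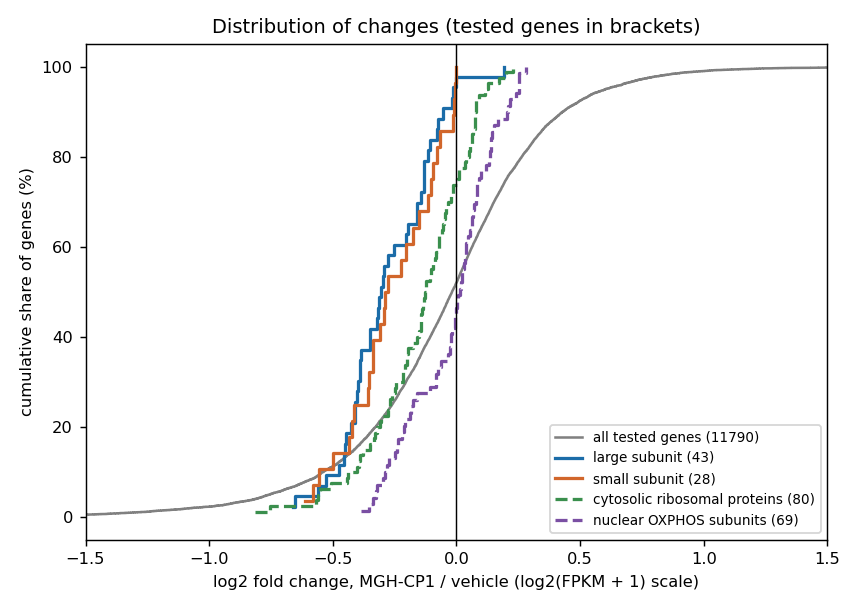
Cumulative share (%) of tested genes by log2 fold change (log2(FPKM + 1) scale), 1 line per gene group, with the number of genes in brackets. The lines of the large (median -0.30) and small (median -0.28) mitochondrial ribosomal genes run close together and, at their middle, to the left of those of cytosolic ribosomal proteins (-0.13), nuclear oxidative phosphorylation (OXPHOS) genes (0.01) and all genes (-0.02). At -0.5 or lower lie 4 of 43 large-subunit and 4 of 28 small-subunit genes, and the line of all genes runs on beyond both ends of the axis.

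**Figure D4:**
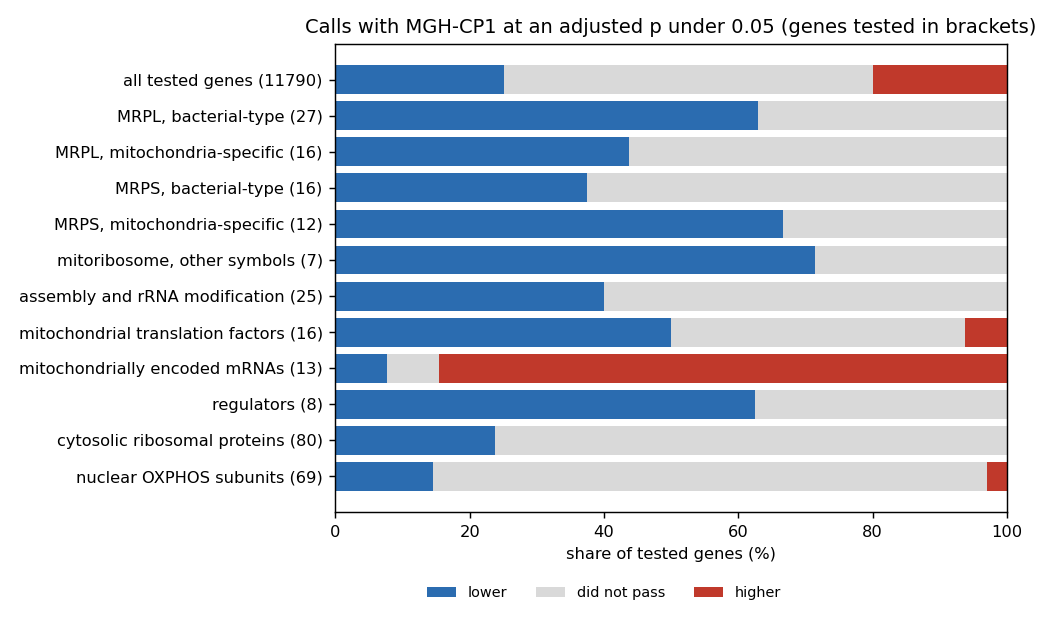
Share (%) of tested genes in each group that were called lower, did not pass or were called higher with MGH-CP1 at an adjusted p under 0.05 (limma). Lower calls make up 63.0% and 43.8% of the bacterial-type and mitochondria-specific large-subunit genes and 37.5% and 66.7% of those of the small subunit, against 25.1% of all genes, and the mRNAs encoded in mitochondrial DNA are the group made up mostly of higher calls (11 of 13).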

How the data were processed

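The deposited table gives FPKM values that the authors scaled to gene length and library size, for 48162 genes in 4 libraries. The submitters' processing notes name CASAVA 1.8, STAR and hg19. For the counter, its strand setting and the annotation, the sources used here give nothing. Genes were joined by identifier, since 29 symbols had turned into dates. Multiplied by gene length, all values (100%) were whole multiples of 1 step within 0.001, which gave the reads per gene. Depth is their sum over genes.

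MGH-CP1 was compared with vehicle (2 libraries each) with limma 3.58.1 in R 4.3.3 on log2(FPKM + 1), with group as the only term, a mean-variance trend and a two-sided test. The 11790 genes whose mean reached 1 FPKM were tested, p-values were adjusted by Benjamini-Hochberg over all of them, and calls were made at an adjusted p under 0.05. On this scale changes of genes with low values are understated. Fits were tested on simulated data with the same spread setting for every gene and fewer changed genes than were called here. That run does not give their error rate in these data. Alternatives were other pseudocounts, filters and scalings, voom on the recovered reads, a replicate block, and leaving out each library or overlapping members. The subunit by place in the particle was added after the data were seen. Samples were not paired by replicate number in the main fit. Same-numbered deviations had a correlation of 0.0502 over genes, which cannot show whether those libraries were handled together.

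The members, lists and named-gene rule were chosen with earlier results of these data known. Per subunit, the rule named the 5 called genes with the largest fall and the 5 with the largest rise, the 3 highest and 2 lowest members by level, MRPL12 and the MRPS18 genes, and from each list the 2 called genes with the largest change. Other members and partner genes were named after their values were seen. Overlaps and divergent starts come from the hg19 positions in the deposited table. Of the listed entries, MTG2, C7orf30, PECAM1, MT-RNR1 and MT-RNR2 were not matched. Promoters are RefSeq windows on GRCh38.p14 matched by symbol. Tables were made with pandas 2.3.3 and numpy 2.4.6 in Python 3.11.15, and plots with matplotlib 3.10.9.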

Additional observations from a re-analysis of the deposited data

How the results depend on the processing

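With a pseudocount of 5 the median log2 fold change was -0.22 over all members and -0.19 in the small subunit. With no filter on low values 24 members were lower (15 large, 9 small), when 8.25% of 24640 genes tested were lower. With a minimum mean of 5 FPKM 1 member was higher (MRPL41, large), the small-subunit median was -0.22 and the difference of medians -0.0765. Rescaling by median-of-ratios, quantile normalization and the replicate block each gave 1 higher member, again MRPL41, and quantile normalization a small-subunit median of -0.21. The replicate block left 38 members lower, 23 large and 15 small. Leaving out members that overlap another expressed gene gave 24 lower of 43 tested (15 large, 9 small).

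Leaving out each library in turn gave 25 to 46 lower members (17 to 31 large, 7 to 15 small) and 0 to 1 higher. Medians ran from -0.34 to -0.22 over all members, from -0.35 to -0.22 in the large and from -0.35 to -0.19 in the small subunit. The difference of medians ran from -0.15 to 0.0062, the last without vehicle replicate 2. MRPL12 was at 0.0307 without vehicle replicate 1 and at -0.807 without vehicle replicate 2. MRPS18A was at 0.0107 under median-of-ratios and 0.0519 under quantile normalization, and ran from -0.0961 without vehicle replicate 2 to 0.0709 without vehicle replicate 1 (0.0539 without MGH-CP1 replicate 1). The causes were not tested.

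Of the 38 lower calls 18 held under every alternative tried for them (13 large, 5 small). Tested members rested on 27 to 3632 reads in a library, and 3 of them on fewer than 100 reads in at least 1 library. With 2 libraries per group, a difference that did not pass is not shown to be absent.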
